A study of Mus musculus with 4 samples.

Results

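Inflammasome components and inflammatory cytokines were examined as a group of 10 genes in CD24+ emergency progenitors (EPs), the DC-committed cells that appear in the spleen of mice given Flt3L. The genes were Nlrp3, Pycard, Casp1, Casp4, Gsdmd, Il1b, Il18, Tnf, Il12b and Nfkbia, taken by gene symbol from the 40213 symbols of the count files, and Nlrp3 is one that the study counts among the targets of IRF8 and PU.1. All 10 were found and all 10 had counts in every library. Bulk RNA-seq covered 2 libraries from WT mice, which are TopBP1 fl/fl littermates without Cre in the study's usage, and 2 labelled TopBP1cKO, from TopBP1 fl/fl mice that carry CD11c-cre, a recombinase driven by the CD11c (Itgax) promoter. Both groups received 10 μg of Flt3L-Ig by the intraperitoneal route on day 0 and once more on day 3, and the spleen was sorted for CD24+ EPs on day 9. The study's methods give an age of 7 to 10 weeks for its mice, whereas neither the age nor the number of animals behind a library stands in the labels.

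An inflammasome is a cytosolic complex in which a sensor such as NLRP3 recruits the adaptor ASC, which in turn gathers pro-caspase-1. Active caspase-1 cuts pro-IL-1β and pro-IL-18 into their secreted forms and cuts gasdermin D, whose fragment opens pores in the plasma membrane. Transcription of Nlrp3, Il1b, Tnf and Il12b is driven in large part by NF-κB in dendritic cells and macrophages, and the gene of its inhibitor IκBα, Nfkbia, is itself an NF-κB target. Counts of mRNA report the supply of transcripts and not cleavage or secretion of the proteins.

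The promoters of Nlrp3, Il18 and Nfkbia are shown because Nlrp3 and Il18 had the largest differences between the groups and Nfkbia was the most abundant of the 10 genes. Each run holds the 250 bases before a transcription start in RefSeq, on the GRCm38.p6 build and read along the gene's own strand. The Nlrp3 run is chr11:59542436-59542685 on the plus strand, upstream of its more downstream start, the Il18 run is chr9:50554450-50554699 on the plus strand and the Nfkbia run is chr12:55492648-55492897 on the minus strand. No annotated exon lies in them. Capitals mark the PU.1 motif GAGGAAG, on either strand, in Nlrp3 and a match to the NF-κB consensus in Nfkbia.
Nlrp3: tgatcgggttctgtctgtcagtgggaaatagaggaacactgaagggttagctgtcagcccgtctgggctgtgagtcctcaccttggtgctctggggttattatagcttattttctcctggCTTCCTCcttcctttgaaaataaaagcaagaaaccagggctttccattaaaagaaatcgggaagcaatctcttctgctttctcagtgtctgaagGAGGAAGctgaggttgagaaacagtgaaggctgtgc
Il18: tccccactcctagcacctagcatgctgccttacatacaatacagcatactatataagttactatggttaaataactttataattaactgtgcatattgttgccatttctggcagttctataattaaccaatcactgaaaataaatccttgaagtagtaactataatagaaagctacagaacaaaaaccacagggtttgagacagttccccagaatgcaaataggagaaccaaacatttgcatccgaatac
Nfkbia: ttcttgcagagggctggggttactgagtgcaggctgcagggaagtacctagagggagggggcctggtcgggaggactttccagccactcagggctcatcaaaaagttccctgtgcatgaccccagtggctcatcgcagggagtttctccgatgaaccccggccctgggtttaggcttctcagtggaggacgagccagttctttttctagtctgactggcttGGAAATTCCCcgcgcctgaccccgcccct

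Windows of 300 bases, with 50 bases after the start included, were at hand for 9 of the 10 genes, the exception being Gsdmd, and Nlrp3 and Casp4 had an additional start each. Both strands were searched for GAGGAAG (PU.1), a PU.1-IRF composite (GGAA and GAAA parted by any 2 bases), an interferon response motif (GAAA and GAAA parted likewise) and the NF-κB consensus, which were held by 13.6%, 2.72%, 3.44% and 4.51% of all 32851 windows. The downstream start of Nlrp3 held GAGGAAG from −36 to −30 and its reverse complement from −130 to −124, positions being counted back from the start. The upstream start of Nlrp3, whose window overlaps an annotated UTR and is not printed, held an NF-κB match from −186 to −177. GAGGAAG was also matched in Pycard, from −43 to −37, and in Tnf, from −118 to −112, each on the reverse strand. NF-κB matches stood from −29 to −20 in Nfkbia and, overlapping one another, from −93 to −83 of 1 Casp4 start. The PU.1 motif and the composite can share letters. Casp1, Il1b, Il18 and Il12b held none of the 4 motifs in these windows, and no window of the 10 genes held the composite or the interferon response motif. A match describes letters in a window and does not show that a factor binds there.

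None of the 10 genes differed between the groups at FDR < 0.05. Nlrp3 tended higher and Il18 lower in the libraries labelled TopBP1cKO, and the other 8 genes had log2 fold changes between −0.17 and 0.12. Across all 12393 genes tested, 0.0807% were called higher and 0.0242% lower at this threshold, so that 0 of 10 calls lies at the background. By edgeR's P value before adjustment, with the same threshold of 0.05, 1 of the 10 genes was higher and 1 lower, against 6.95% and 3.77% of all genes. In bulk RNA, fewer cells of a type and less RNA per cell cannot be told apart. The P values come from the edgeR model fitted across all genes, because 0.333 is the smallest value that an exact two-sided permutation of 2 against 2 libraries allows.

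Several facts of the whole series touch these values. Library totals ran from 14561583 to 15193831 counts. Topbp1 itself was counted 1102 and 1143 times in WT EPs, 773 times in TopBP1cKO replicate 1 and 1279 times in TopBP1cKO replicate 2. The last value was above both WT values, against what its label implies. Counts over the whole gene do not show whether Cre had cut it, so the second group carries its label's name and no more. TopBP1cKO replicate 2 also stood apart over all genes, since the chi-square over genes, divided by its degrees of freedom, was 38.7 to 47.6 against each other library and 11.9 to 14.4 among the other 3. The genes of the EP gate were expressed in every library, with 8776 to 10511 counts of Itgax (CD11c), 11686 to 14001 of Cd24a and 5916 to 7181 of Kit. Xcr1, the chemokine receptor that marks cDC1s, also had 9540 to 11385 counts. Within EPs the study uses XCR1 to tell XCR1-negative CD24+ cells from XCR1-positive CD24+ cDC1s. Its RNA-seq methods name CD24+ EPs and no XCR1 gate. The median gene differed 1.1-fold between the WT libraries and 1.18-fold between the libraries labelled TopBP1cKO.

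**Figure D1:**
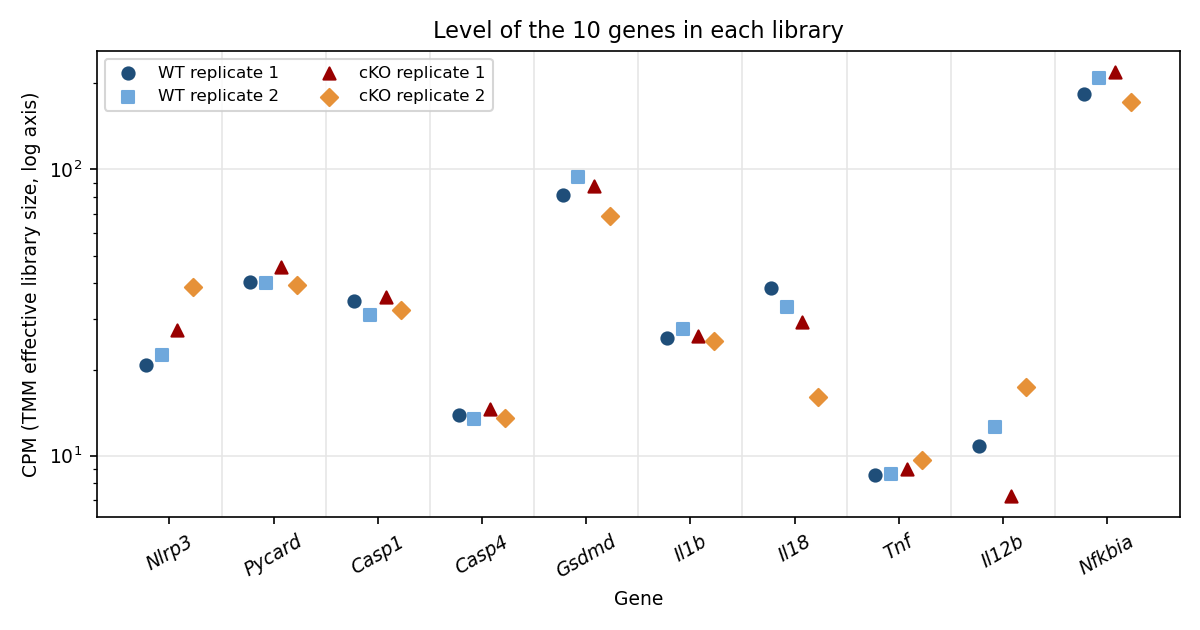
Level of each of the 10 genes in each library, as counts scaled to a common library size (CPM) on a log axis, with 1 point per library and no error bars since every library is drawn. Nfkbia lies highest at 172 to 219 CPM and Tnf near 9 CPM, the 2 groups part for Nlrp3, Il18 and, narrowly, Tnf, and Il12b spreads from 7.22 to 17.4 CPM within the libraries labelled TopBP1cKO.

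Nlrp3 encodes the sensor that gives the NLRP3 inflammasome its name, which responds to potassium efflux and other signs of membrane damage. Its counts were 293 and 338 in WT EPs and 417 and 603 in the libraries labelled TopBP1cKO. Scaled to CPM, its level was 20.7 and 22.4 in WT EPs and 27.4 and 39 in the libraries labelled TopBP1cKO, or means of 21.5 ± 1.17 and 33.2 ± 8.22 (SD, n = 2 each). Both libraries labelled TopBP1cKO were above both WT libraries, as was so for 22.8% of all genes, and replicate 2 lay farther from them. The fold change was 1.54 with a 95% interval of 1.12 to 2.11, a log2 fold change of 0.62 (SE 0.20, unadjusted P = 0.0135, FDR 0.351 in edgeR's quasi-likelihood test). It ranked 477 by P value among the genes tested, and 11.2% of all genes had a larger difference in either direction. The ratio of the libraries labelled TopBP1cKO to each other was 1.42, exceeded by 19.4% of genes. Without TopBP1cKO replicate 2 the log2 fold change of Nlrp3 was 0.34, and without TopBP1cKO replicate 1 it was 0.85. In such a fit the lone library is assumed to vary as the others do.

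Pycard encodes ASC, the adaptor that polymerizes into the inflammasome speck. It had 574 and 606 counts in WT EPs and 694 and 613 in the libraries labelled TopBP1cKO. The levels were 40.3 ± 0.33 CPM and 42.6 ± 4.18 CPM (SD, n = 2 each), and the replicates labelled TopBP1cKO lay on either side of the WT values. The log2 fold change of 0.079 (SE 0.14, FDR 0.877) had a 95% interval from −0.24 to 0.40.

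Casp1 encodes caspase-1, the protease that matures IL-1β and IL-18. It had 489 and 469 counts in WT EPs and 546 and 499 in the libraries labelled TopBP1cKO, a level of 32.8 ± 2.49 CPM and 34.1 ± 2.52 CPM (SD, n = 2 each). The groups overlapped, and the log2 fold change, 0.055 (SE 0.14, FDR 0.928), had a 95% interval from −0.28 to 0.39. Casp4 encodes caspase-11, which binds cytosolic LPS and cuts gasdermin D in the noncanonical pathway. It had 197 and 203 counts in WT EPs and 223 and 209 in the other group. The levels of Casp4, 13.7 ± 0.346 CPM and 14.1 ± 0.793 CPM (SD, n = 2 each), overlapped as well, and its log2 fold change, 0.042 (SE 0.18, FDR 0.961), had a 95% interval from −0.38 to 0.46. Of the 31-base sequences of Casp4 transcripts, 1.45% occur in another gene, the highest share among the 10 genes.

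Gsdmd encodes gasdermin D, the pore-forming substrate of both caspases. It had 1156 and 1426 counts in WT EPs and 1332 and 1063 in the libraries labelled TopBP1cKO. TopBP1cKO replicate 2 was the lowest library, at 68.7 CPM, and TopBP1cKO replicate 1 lay between the WT libraries, at 87.4 CPM. The log2 fold change was −0.17 (SE 0.15, FDR 0.726), with a 95% interval from −0.53 to 0.19. Leaving out TopBP1cKO replicate 1 gave −0.36.

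The IL-1 family cytokines that caspase-1 matures differed from each other in their values. Il1b, which encodes the precursor of IL-1β, had 365 and 419 counts in WT EPs and 398 and 388 in the libraries labelled TopBP1cKO. Its levels of 26.8 ± 1.36 CPM and 25.6 ± 0.73 CPM (SD, n = 2 each) overlapped, and the log2 fold change of −0.063 (SE 0.15, FDR 0.913) had a 95% interval from −0.40 to 0.27. Il18, which encodes the precursor of the IFNγ-inducing cytokine IL-18, had 543 and 499 counts in WT EPs and 446 and 247 in the libraries labelled TopBP1cKO. Both of the latter were below both WT libraries, as was so for 20.8% of all genes.

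The level of Il18 was 38.4 and 33 CPM in WT EPs and 29.3 and 16 CPM in the libraries labelled TopBP1cKO, which gave means of 35.7 ± 3.79 and 22.6 ± 9.41 CPM (SD, n = 2 each). The fold change was 0.634 with a 95% interval of 0.413 to 0.972, a log2 fold change of −0.66 (SE 0.27, unadjusted P = 0.0395, FDR 0.446). TopBP1cKO replicate 1 stood close to the lower WT library, and replicate 2 stood well below it. The 2 libraries labelled TopBP1cKO differed 1.83-fold from each other in Il18, a ratio exceeded by 6.6% of genes. Without TopBP1cKO replicate 2 the log2 fold change of Il18 was −0.29, and without TopBP1cKO replicate 1 it was −1.16, each with a lone library left in that group.

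Tnf encodes the membrane-anchored and shed cytokine TNF. It was low and even, with 121 and 130 counts in WT EPs and 137 and 149 in the libraries labelled TopBP1cKO, or 8.58 ± 0.0359 CPM and 9.31 ± 0.455 CPM (SD, n = 2 each). Both libraries of the second group were above both WT libraries, yet the log2 fold change was only 0.12 (SE 0.21, FDR 0.88), with a 95% interval from −0.37 to 0.61. Il12b encodes the p40 subunit that IL-12 and IL-23 share. It had 153 and 190 counts in WT EPs, whereas the libraries labelled TopBP1cKO held the lowest and the highest count, 110 in replicate 1 and 269 in replicate 2. These replicates differed 2.41-fold, a ratio exceeded by 2.58% of genes. The log2 fold change of Il12b was 0.074 (SE 0.37, FDR 0.966) with the widest 95% interval of the 10 genes, from −0.79 to 0.94. It was 0.57 without TopBP1cKO replicate 1 and −0.70 without TopBP1cKO replicate 2, so the direction of Il12b rests on which of these libraries is used.

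Nfkbia encodes IκBα, which holds NF-κB dimers in the cytosol and is resynthesized when they are active. It had 2594 and 3151 counts in WT EPs and 3330 and 2654 in the libraries labelled TopBP1cKO. The levels, 196 ± 17.8 CPM and 195 ± 33.2 CPM (SD, n = 2 each), overlapped. The log2 fold change was −0.0058 (SE 0.15, FDR 0.991), with a 95% interval from −0.35 to 0.34.

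**Figure D2:**
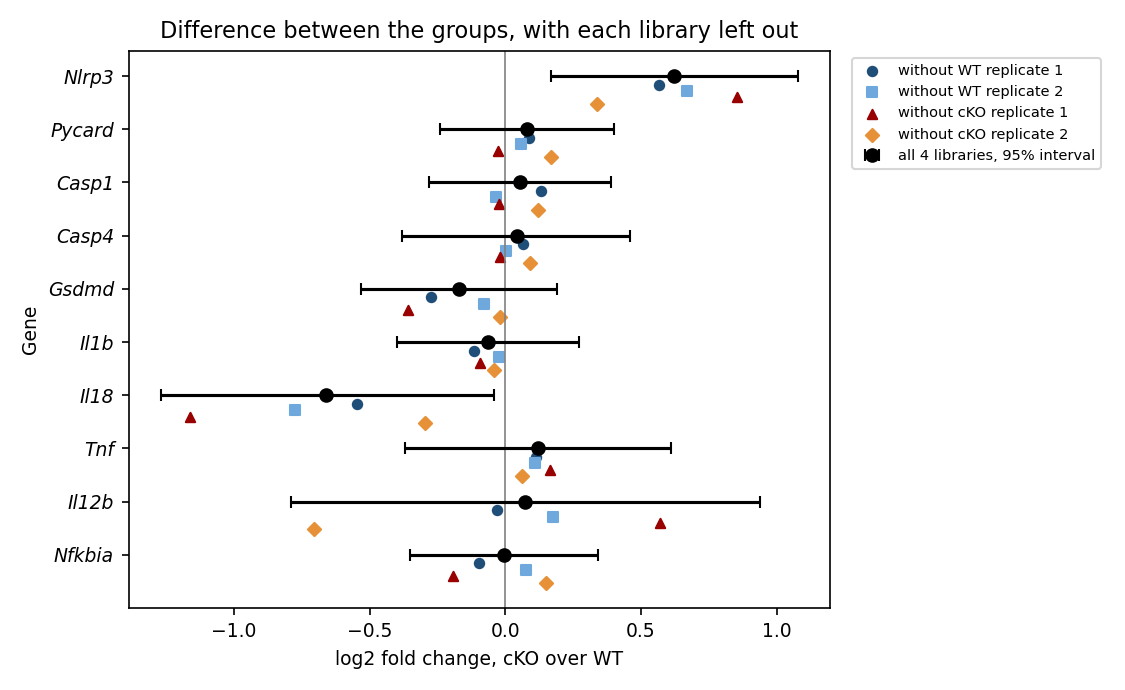
Log2 fold change of each gene, libraries labelled TopBP1cKO (cKO) over WT, on the x axis, where black points with bars are the fit to all 4 libraries with its 95% interval and coloured symbols are fits that each leave out 1 library. The intervals of Nlrp3 (0.17 to 1.08) and Il18 (−1.27 to −0.041) leave out 0, and the symbols spread most for Il12b, from −0.70 to 0.57.

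Considered as a group, 6 of the 10 genes had a fitted value above 0 and 4 below. Their median log2 fold change was 0.048, beside 0.0084 for all genes tested. The groups did not overlap for Nlrp3, Tnf and Il18, which is 3 of 10 genes against 43.6% of all genes. The summed level of the 10 genes was 458 and 492 CPM in WT EPs and 501 and 433 CPM in the libraries labelled TopBP1cKO, so both WT values lay between the others.

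Levels were compared between genes per length, as CPM per kilobase of the longest annotated transcript matched to RefSeq. In the WT libraries Nfkbia stood highest at 116 and 132 CPM per kb, followed by Gsdmd at 45.6 and 52.6 and Il18 at 44.6 and 38.4. Casp1 came next at 23.1 and 20.7 CPM per kb, then Il1b at 19 and 20.4, Pycard at 10.7 and 10.6 and Casp4 at 9.7 and 9.36. The inhibitor and the gasdermin were thus high per length, and Casp1 and Il1b were above the sensor. Il12b at 5.81 and 6.75, Nlrp3 at 5.15 and 5.56 and Tnf at 5.22 and 5.25 CPM per kb were the lowest. Nlrp3 and Tnf overlapped in the WT libraries, and every other pair of neighbours in this order did not. The place of Il18 is uncertain, because its length of 860 bases is that of NM_008360. That row held 21 counts in WT replicate 1 and 0 elsewhere. The lengths of the rows that hold the counts of Il18 were not used here. The place of Nlrp3 is uncertain as well, because its length of 4021 bases is that of NM_145827, whose row held 132 and 22 counts in the WT libraries. There XM_036156548.1 held 51.5% and 50.6% of the Nlrp3 counts, and the length of that row was not used. In the libraries labelled TopBP1cKO, Nlrp3 reached 6.81 and 9.7 CPM per kb, Tnf 5.49 and 5.88 and Il12b 3.88 and 9.35, while Il18 had 34 and 18.6.

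The deposited counts stand on RefSeq transcripts, and the 10 genes had 39 transcript rows, of which 30 held a count in some library. How reads shared by several transcripts were divided decides the count of each, by a rule not given in the sources used here. Nlrp3 showed the widest disagreement among its rows. Its transcript XM_036156548.1 held 151 and 171 counts in WT EPs, which is 51.5% and 50.6% of the gene's counts there, and 0 in both libraries labelled TopBP1cKO, where a count of 0 allows up to 3 counts. Of all transcript rows with at least 20 counts in both WT libraries, 2.28% were at 0 in both libraries labelled TopBP1cKO, and among the 15 such rows of the 10 genes this was the only one. The reverse pattern was found in 2.58% of all rows that had at least 20 counts in both libraries labelled TopBP1cKO and in 0 of 16 rows of the 10 genes.

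Over the 4 libraries together, the most abundant Nlrp3 transcript was NM_001359638.1, with 0 and 136 counts in WT EPs and 198 and 445 in the libraries labelled TopBP1cKO. NM_145827.4 had 132, 22, 187 and 0 counts in the same order, and XM_006532858.2 had 86 counts in TopBP1cKO replicate 2 and 0 elsewhere. Each of these 4 rows was at 0 in some library, whereas the total of the gene was at least 293 counts throughout. Tested row by row, XM_036156548.1 had an FDR of 8.35e-05 in edgeR's likelihood ratio test, which called 2.13% of all rows lower, and an FDR of 0.558 in its quasi-likelihood test (unadjusted P = 0.00261). The 2 annotated Nlrp3 transcripts that could be matched to RefSeq share 99.1% and 96.9% of their 31-base sequences with each other. No 31-base sequence of Nlrp3 or Il18 occurs in another gene.

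Il18 had 8 counted rows. NM_001357221.1, the most abundant, had 235 and 213 counts in WT EPs and 234 and 116 in the libraries labelled TopBP1cKO. The low value of the gene in TopBP1cKO replicate 2 was thus seen in its most abundant transcript, while that of replicate 1 was not. Gsdmd, Casp4 and Il1b also had several counted rows, of which the most abundant held most of the counts in every library. NM_026960.4 of Gsdmd had 896, 982, 920 and 740 counts in the order WT replicate 1, WT replicate 2, TopBP1cKO replicate 1 and TopBP1cKO replicate 2. NM_007609.3 of Casp4 had 184, 160, 193 and 179, and NM_008361.4 of Il1b had 274, 299, 328 and 302. Pycard, Casp1, Il12b, Nfkbia and Tnf each had all their counts on 1 row.

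**Figure D3:**
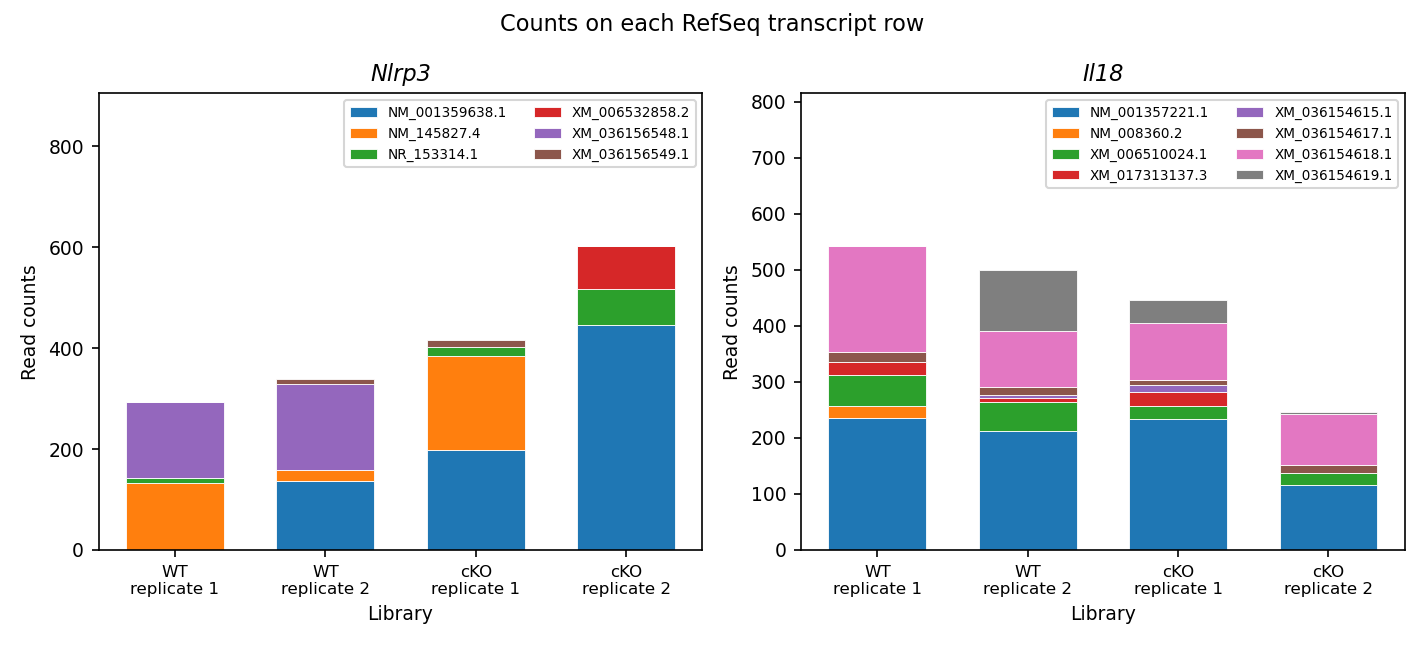
Read counts on each RefSeq transcript row of Nlrp3 (left) and Il18 (right) in the 4 libraries (cKO, labelled TopBP1cKO), stacked so that the bar height is the gene's total count. The purple block of Nlrp3, XM_036156548.1, holds 151 and 171 counts in the WT libraries and is missing from the other 2, and the lowest block of Il18, NM_001357221.1, is at 116 in TopBP1cKO replicate 2.

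Genes that work around the 10 were followed in 6 lists with 130 genes, 104 of which passed the filter on low counts. The lists were chosen with earlier results of these data known, so shares over all genes are no test of them. None of the 104 genes differed at FDR < 0.05, and 9 were higher and 6 lower at an unadjusted P < 0.05, against 6.95% and 3.77% of all genes. Both libraries labelled TopBP1cKO were above both WT libraries for 21 and below for 30 of the 104, which is 20.2% and 28.8% against 22.8% and 20.8% of all genes. The median log2 fold change over the lists was −0.0097.

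Of 27 other inflammasome sensors and effectors, 23 were tested. Aim2, the sensor of cytosolic DNA, was abundant, with 3140 and 3319 counts in WT EPs and 2651 and 2371 in the libraries labelled TopBP1cKO (log2 fold change −0.43, SE 0.12, unadjusted P = 0.00754, FDR 0.332). Nlrc4, the sensor that acts with NAIP proteins on bacterial flagellin and secretion systems, had 79 and 51 counts against 113 and 163 (log2 fold change 1.01, SE 0.32, FDR 0.353). Both genes thus had groups that did not overlap, in opposite directions. For Txnip, a thioredoxin inhibitor that binds NLRP3, the log2 value was −0.49 (SE 0.17, FDR 0.364), and for Pstpip1, a partner of pyrin, it was −0.50 (SE 0.24, FDR 0.502). The groups did not overlap for 14 of the 23, with 4 higher (17.4%) and 10 lower (43.5%), against 22.8% and 20.8% of all genes. Nlrp6 and Gsdmc were at 0 in every library, and Naip1 and Nlrp12 were too low to test.

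The IL-1 family list held 22 ligands, receptors and signalling genes, of which 17 were tested. With unadjusted P < 0.05, 4 were higher and 0 lower, against 6.95% and 3.77% of all genes. Both libraries labelled TopBP1cKO were above both WT libraries for 8 of the 17, or 47.1%, against 22.8% of all genes, and below for 1, or 5.88%, against 20.8%. Il18rap, a chain of the IL-18 receptor, had 84 and 76 counts in WT EPs and 138 and 143 in the libraries labelled TopBP1cKO (log2 fold change 0.74, SE 0.23, FDR 0.351). Il18bp, which encodes the soluble decoy of IL-18, had 25 and 25 counts against 38 and 65 (log2 fold change 0.97, SE 0.40, FDR 0.456). Il1rn, which encodes the IL-1 receptor antagonist, had 10 and 13 against 27 and 37 (log2 fold change 1.40, SE 0.45, FDR 0.352). Il1r1, the signalling receptor of IL-1, had 9 and 6 against 24 and 15 (log2 fold change 1.29, SE 0.56, FDR 0.465). These 4 are genes of low counts, and the direction of each was the same in both libraries. Il1a, the other IL-1 ligand, had 1 count in TopBP1cKO replicate 1 and 0 elsewhere. Il36a, Il36b and Il1f10 were at 0, and Il33 was too low to test.

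In the list of 23 TNF receptor and signalling genes, 22 were tested, with a median log2 fold change of −0.016. On the log2 scale, Birc3, which encodes the ubiquitin ligase cIAP2, differed by −0.34 (SE 0.13, FDR 0.401). Tnfrsf1a, the main TNF receptor, had −0.32 (SE 0.12, FDR 0.406), and Sharpin, a subunit of the linear ubiquitin ligase, had −0.32 (SE 0.13, FDR 0.439). Ltb, which encodes lymphotoxin β, had 0.61 (SE 0.24, FDR 0.444). With unadjusted P < 0.05, 1 was higher and 3 were lower, beside 6.95% and 3.77% of all genes. The groups did not overlap for 1 higher (4.55%) and 8 lower (36.4%) genes, beside 22.8% and 20.8% of all genes. Lta was too low to test.

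The 16 NF-κB subunits and inhibitors were all tested, and the smallest unadjusted P value was 0.124. Their log2 fold changes ran from −0.20 for Nfkbib to 0.24 for Relb, with SEs of 0.14 for both, and Nfkb1 had 0.15 (SE 0.11, FDR 0.687) and Bcl3 0.21 (SE 0.18, FDR 0.708). Nfkbia lay inside this range. Of 12 genes of the IL-12 family and its receptors, 8 were tested, and the smallest unadjusted P value was 0.129. Il12a, which encodes the p35 partner of p40 in IL-12, had 6, 2, 11 and 7 counts, and Il23a, the p19 partner in IL-23, had 1, 1, 0 and 0. These and Il27 and Il23r were too low to test. On the log2 scale, Ebi3 differed by −0.28 (SE 0.17, FDR 0.594) and Stat4, which signals below the IL-12 receptor, by 0.46 (SE 0.27, FDR 0.593), while Tyk2 and Jak2 had −0.19 (SE 0.13) and −0.16 (SE 0.12).

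Among 30 other inflammatory cytokines and chemokines, 18 were tested, with 3 higher and 1 lower at an unadjusted P < 0.05, where 6.95% and 3.77% of all genes were. Ccl5, a chemokine for T cells, had 167 and 199 counts in WT EPs and 323 and 265 in the libraries labelled TopBP1cKO (log2 fold change 0.62, SE 0.19, FDR 0.347). Ccl6 had 914 and 868 against 751 and 370 (log2 fold change −0.74, SE 0.29, FDR 0.441), with the lowest value again in TopBP1cKO replicate 2. Mif, which encodes a macrophage cytokine, and Hmgb1, which encodes a chromatin protein that acts as an alarm signal outside the cell, had log2 fold changes of 0.40 (SE 0.16, FDR 0.445) and 0.36 (SE 0.15, FDR 0.456). Csf2, Cxcl1, Cxcl3 and Nos2 were at 0 in every library, and Il10, Il17a, Ifng, Csf3, Lif, Ccl2, Ccl17 and Cxcl2 were too low to test.

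**Figure D4:**
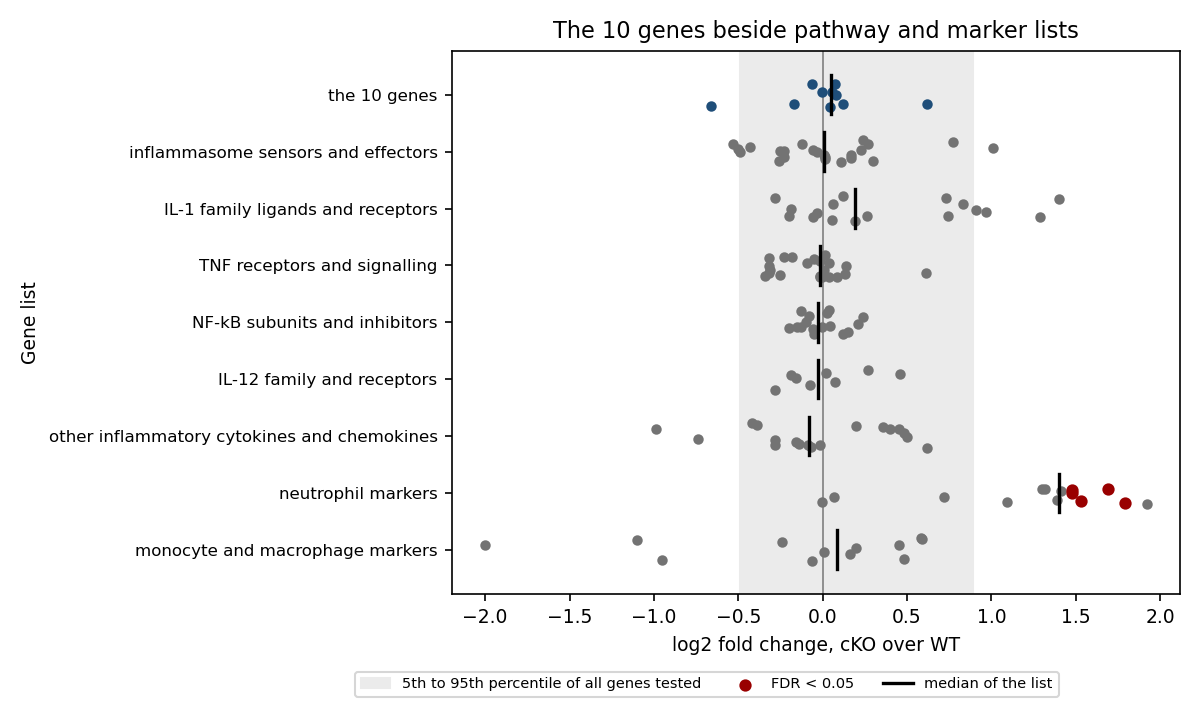
Log2 fold change (x axis) of each tested gene in the 10 genes, 6 pathway lists and 2 marker lists (y axis), with a black line at the median of a list and red points at FDR < 0.05. The 10 genes and the pathway lists have medians between −0.078 and 0.19 and no red point, and the neutrophil markers have a median of 1.40 with 5 red points; the grey band is the 5th to 95th percentile of all genes tested, −0.49 to 0.89.

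Markers of other cell types were read beside these values, since neutrophils and monocytes also express inflammasome and IL-1 family genes. All 14 neutrophil markers had counts in every library, and 12 were higher in both libraries labelled TopBP1cKO than in both WT libraries, 5 of them at FDR < 0.05. Of all genes, 22.8% lay above in this way and 0.0807% were called higher at FDR < 0.05. The marker list was chosen with earlier results of these data known, so these shares are no test of it. The summed level of the 14 markers was 1500 and 1244 CPM in WT EPs and 3217 and 2466 CPM in the libraries labelled TopBP1cKO. S100a8 had 1502 and 1516 counts against 4640 and 4535 (log2 fold change 1.53, FDR 0.00634), and Ly6g, which defines mature neutrophils, had 16 and 13 against 49 and 67. Among the 10 genes, Nlrp3 and Tnf lay above in both libraries labelled TopBP1cKO and Il18 below, and the others overlapped. Of the 17 IL-1 family genes tested, 8 lay above and 1 below. Of the 23 other inflammasome genes tested, 4 lay above and 10 below. The shares over all genes were 22.8% above and 20.8% below. None of the 10 genes, the IL-1 family genes or the other inflammasome genes passed FDR < 0.05. The part of the neutrophil markers in these values was not tested. Mpo and Elane, the primary granule genes of the list, overlapped between the groups, with 8464, 6391, 13311 and 3014 counts of Mpo in the order WT replicate 1, WT replicate 2, TopBP1cKO replicate 1 and TopBP1cKO replicate 2.

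The 14 monocyte and macrophage markers summed to 1079 and 1015 CPM in WT EPs and 1207 and 957 CPM in the libraries labelled TopBP1cKO, so this sum did not separate the groups. No marker of these lists was at 0 in any library. Csf1r, which defines the lineage, had 275 and 342 counts against 456 and 517 (log2 fold change 0.59, SE 0.16, FDR 0.309), while C1qb, of splenic macrophages, had 16 and 23 against 3 and 7. The 6 T cell markers found summed to 11.7 and 12.9 CPM in WT EPs and 22.1 and 14.9 in the libraries labelled TopBP1cKO, and the 6 B cell markers to 32.9 and 28.2 against 38.8 and 33.9. The 10 genes of the EP and cDC1 list summed to 7040 and 7154 CPM against 6789 and 6033. The most abundant of them, Irf8, had 2456 CPM in TopBP1cKO replicate 1 and 1933 in TopBP1cKO replicate 2. Not all of the list was lowest in TopBP1cKO replicate 2. Xcr1 had 626 and 701 CPM and Zbtb46 197 and 203 in TopBP1cKO replicates 1 and 2. In both libraries labelled TopBP1cKO, 6 of the 10 genes lay below both WT libraries, Xcr1 and Zbtb46 among them, and 1 lay above. These are 60% and 10%, against 20.8% and 22.8% of all genes. Fitted values were lower for 8 of the 10 and higher for 2, and none passed the FDR threshold. Kit had the smallest P value of the list (log2 fold change −0.30, SE 0.12, FDR 0.436). This list was also chosen with earlier results known, so these shares are no test of it.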

How the data were processed

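Counts of 4 bulk RNA-seq libraries of sorted CD24+ EPs were used. The labels name RNAiso Plus and the CORALL RNA-seq V2 kit, whereas the study's methods name an RNeasy kit. The authors deposited whole-number counts per RefSeq transcript, without normalization. The submitters' processing notes name fastp, STAR, Salmon, GATK and the GRCm39 build, with no role or version, so rounded Salmon estimates cannot be told apart from read counts, and how reads shared by transcripts were assigned is not given in the sources used here. Division of shared reads affects single transcripts more than gene sums. Promoters are on GRCm38.p6 and were not joined to the counts by position.

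Counts were summed per gene symbol. No row lacked a gene name. Of 19815 genes with a count, 12393 passed filterByExpr and were tested by edgeR 4.0.16 (R 4.3.3) with TMM, the quasi-likelihood test and Benjamini–Hochberg adjustment across all of them (FDR < 0.05). The biological coefficient of variation was 15.2%. CPM use TMM library sizes. Alternatives were DESeq2 1.42.0, limma-voom (limma 3.58.1), other normalizations and filters, edgeR's likelihood ratio test, a replicate block, single transcript rows and leaving out each library. The labels do not say whether libraries came from separate animals, so P values measure the spread between these samples, which may be technical. Limits for counts of 0 (3 counts) cover counting error only.

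The 10 genes and all lists were chosen with earlier results of these data known. The rule for names took the 10 genes, Topbp1, from each pathway list the genes at FDR < 0.05 and the 4 with the smallest P values, genes not tested, defining markers, and of transcripts the most abundant of a gene and any that had 20 or more counts in both libraries of a group and 0 in the other. Outside this rule, NM_145827.4 and XM_006532858.2 were picked with their values in view. The fits were run on simulated data with 200 changed genes. Every simulated gene had the same biological coefficient of variation, and no simulated library stood apart. The simulation therefore does not show the error rate of the fits in these data.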

Additional observations from a re-analysis of the deposited data

How the results depend on the processing

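The number of the 10 genes at FDR < 0.05 was 0 in each direction under the other normalizations, filters, DESeq2, limma-voom and the gene-level likelihood ratio test. It was 1 lower under the replicate block (Il18, log2 fold change −0.71, FDR 0.0184) and 1 lower, the Nlrp3 transcript, in the likelihood ratio test on transcript rows. With each library left out, it ranged from 0 to 2 higher and from 0 to 1 lower, the highest values coming without TopBP1cKO replicate 1 (Nlrp3 and Il12b higher, Il18 lower). Pathway genes at FDR < 0.05 numbered 1 higher and 2 lower under the replicate block, and from 0 to 6 higher and 0 to 16 lower with a library left out. Whether libraries that share a replicate number belong together, as the replicate block assumes, is not known. After group means were subtracted, the gene values of WT replicate 1 and TopBP1cKO replicate 1 correlated at −0.046. With 2 libraries a group, every other pairing gives this value or its opposite sign. It therefore cannot show whether the libraries are paired. Over all genes, the 10 higher and 3 lower calls became 180 and 54 in the likelihood ratio test, 104 and 33 in DESeq2, 395 and 109 with the replicate block, 16 and 3 with no filter, 9 and 0 with upper quartile scaling, 1 and 0 without WT replicate 2, 1432 and 1193 without TopBP1cKO replicate 1 and 142 and 81 without TopBP1cKO replicate 2. On transcript rows, 761 and 631 passed in the likelihood ratio test and 0 and 0 in the quasi-likelihood test, with 1034 and 984 at an unadjusted P value below 0.05. Directions turned only for values near 0 and for Il12b. With a library left out, Casp1 ranged from −0.033 (without WT replicate 2; −0.024 without TopBP1cKO replicate 1) to 0.13, Casp4 from −0.018 to 0.090, Pycard from −0.026 to 0.17 and the median of the 10 genes from −0.025 to 0.075, the last 3 lowest without TopBP1cKO replicate 1. Il12b was −0.056 in limma-voom, −0.035 with the replicate block, −0.031 without WT replicate 1, −0.70 without TopBP1cKO replicate 2 and 0.57 without TopBP1cKO replicate 1. Nfkbia was 0.0062 with upper quartile scaling and from −0.19 to 0.15 with a library left out (0.078 without WT replicate 2, highest without TopBP1cKO replicate 2). The cause was not tested. Nlrp3 stayed between 0.34 and 0.85 and Il18 between −1.16 and −0.29 in all fits. The widest interval, that of Il12b, belongs to the gene whose TopBP1cKO replicates differed most among the 10. Replicate spread alone did not order the SEs. Tnf had replicate ratios of 1.01 in WT and 1.07 in TopBP1cKO and an SE of 0.21. Nfkbia had ratios of 1.14 and 0.785 and an SE of 0.15.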
